A study of Mus musculus with 11 samples.

Results

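The genes of the hypoxia-inducible factor (HIF) subunits were described through their accessible chromatin in MPC2 cells, a conditionally immortalised line of mouse mesenchymal progenitors. The 5 genes were Hif1a, Epas1, Hif3a, Arnt and Arnt2. Every region of the deposited list that overlapped a gene from 20 kb upstream of its annotated start to its end was taken as a member, with gene positions from GENCODE release M21 on the mm10 (GRCm38) genome. This gave 33 of 94963 regions, with 15 at Arnt2, 9 at Epas1, 4 at Hif1a, 4 at Hif3a and 1 at Arnt. The choice used positions alone and no level.

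Open chromatin had been profiled by ATAC-seq, which relies on a transposase (Tn5) that cuts accessible DNA and leaves sequencing adapters there. The 11 samples comprised 3 of undifferentiated MSC cells with vehicle (DMSO), 3 of MSC cells with FG-4592, 2 of Osteocyte cells with vehicle and 3 of Osteocyte cells with FG-4592. Osteocyte cells had been differentiated for 3 weeks, and FG-4592 was given at 50 uM for 48 hours. All samples came from this line, which is 1 clone, so nothing here extends beyond it. The list gave 1 pooled level for each region and no value for any sample. From this list the 4 groups could therefore not be compared, no replicate error can be given for any level, and the depth of each sample is unknown. The comparisons of groups that the study made region by region are not used here. A level was read as log2 CPM, where CPM is the normalised count of cuts scaled to a fixed library total of 1e6, because 2 raised to the levels summed to 1012761 over the list. In such a bulk measurement, more cells with an open site and a site that is open more often in each cell cannot be told apart.

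HIF is a heterodimer of an oxygen-labile alpha subunit and a stable beta subunit, both of the bHLH-PAS protein family. In the presence of oxygen, prolyl hydroxylases mark the alpha subunit for binding by the von Hippel-Lindau protein and degradation. When they are inhibited, by low oxygen or by a drug such as FG-4592 (Roxadustat), the alpha subunit accumulates, pairs with the beta subunit and binds hypoxia response elements (HREs) in DNA. Hif1a and Epas1 encode the main alpha subunits, HIF-1 alpha and HIF-2 alpha. Hif3a encodes a further alpha subunit, of which several splice forms inhibit the others. Arnt encodes the common beta subunit, also called HIF-1 beta, and Arnt2 its paralog, best known from neurons. In bone-forming cells HIF signalling is known for its links to blood vessel growth and bone formation.

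Sequences are shown for the region with the highest level of the list of members and for the contrasting beta subunit genes. For Hif1a and Arnt these were the bases just upstream of the start in the RefSeq promoter table (GRCm38.p6), which held 4 of the 5 genes: Hif1a, Hif3a, Arnt and Arnt2, and not Epas1. For Arnt2 it was the middle of its highest region, in intron 11, since the region at its start ranked only 11th of its 15 by level. An HRE core was counted as ACGTG or GCGTG on either strand, an AP-1 site as TGACTCA or TGAGTCA, and a cAMP response element (CRE) as TGACGTCA. Capitals mark HRE cores in Hif1a, the CRE and the HRE core in Arnt and the AP-1 site in Arnt2.
Hif1a, chr12:73907617-73907866, plus strand: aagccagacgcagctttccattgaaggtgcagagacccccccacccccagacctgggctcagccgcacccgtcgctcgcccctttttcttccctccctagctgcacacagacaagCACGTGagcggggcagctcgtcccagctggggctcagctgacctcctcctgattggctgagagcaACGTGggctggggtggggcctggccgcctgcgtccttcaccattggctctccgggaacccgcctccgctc
Arnt, chr3:95434140-95434387, plus strand: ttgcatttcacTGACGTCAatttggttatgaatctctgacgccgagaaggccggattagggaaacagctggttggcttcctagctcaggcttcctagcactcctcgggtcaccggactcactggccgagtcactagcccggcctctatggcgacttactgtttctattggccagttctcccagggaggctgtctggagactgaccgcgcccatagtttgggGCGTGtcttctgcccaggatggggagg
Arnt2, chr7:84279380-84279679, minus strand: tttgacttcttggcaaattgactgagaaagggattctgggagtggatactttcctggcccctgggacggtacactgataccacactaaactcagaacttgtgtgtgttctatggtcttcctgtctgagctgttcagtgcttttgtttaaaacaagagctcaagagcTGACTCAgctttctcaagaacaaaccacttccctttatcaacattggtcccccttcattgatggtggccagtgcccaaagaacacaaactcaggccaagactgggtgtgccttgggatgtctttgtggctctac

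In the Hif1a sequence the first marked run is the palindrome CACGTG at chr12:73907732-73907737, an E-box that also holds an HRE core on each strand, and the next core lies at chr12:73907797-73907801. Neither the E-box nor the cores are sites of measured binding. CCAAT boxes, in lower case and read on the minus strand, stand at chr12:73907783-73907787, just before the second core, and at chr12:73907838-73907842, after it. In the Arnt sequence the CRE lies at chr3:95434151-95434158 and the HRE core at chr3:95434361-95434365, close to the start. Of 32851 promoters in the RefSeq table, with 250 bases before the start searched in each, 38.6% held an HRE core, 6.02% the E-box, 33.8% a CCAAT box, 4.46% an AP-1 site and 1.55% the CRE. HRE cores are thus common in promoters, and the CRE is rare. In the Arnt2 sequence the AP-1 site lies at chr7:84279507-84279513. These 300 bases held no HRE core, and the 1 core of that region lies outside them.

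Of the cores elsewhere in the regions, 3 are shown because they are the only one at their gene (Hif3a), the only one of the highest Arnt2 region, and the only other palindrome at the 4 genes with printed sequence (Arnt2, intron 5). Capitals mark the core, and each line is on the minus strand, which is the strand of both genes.
Hif3a, intron 1, chr7:17060203-17060227: gttccaggcgCACGTcccaggctgg
Arnt2, intron 11, chr7:84279704-84279728: gaaaggatggGCGTGaagtaggagc
Arnt2, intron 5, chr7:84333106-84333131: gtaaaaacctCACGTGatggtcagac

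Hif1a carried the highest level of all 33 regions, at its main start, and 3 lower regions upstream. Its 4 regions spanned 0.79 to 6.17 log2 CPM. The region over the main start, chr12:73907321-73908743, was 1423 bp wide, reached 6.17 log2 CPM and was higher than 98.3% of all regions in the list. It covered exon 1 with its 5′ untranslated part, the beginning of intron 1 and sequence upstream, and the start at chr12:73907904, shared by 2 coding transcripts, lay inside it. This region held 81.7% of the summed level of the gene (72.2 of 88.4 CPM). It was rich in GC (70.1%) and held 5 HRE cores, 8 GC boxes (GGGCGG) and 2 CCAAT boxes.

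The annotated gene begins 6529 bp before that, at chr12:73901375, with the start of another coding transcript of Hif1a. No region lay within 1000 bp of this upstream start, and the nearest was 4642 bp away. The sequence around the upstream start had a GC content of 41.7%, against 68.1% around the main start. The remaining 3 regions lay upstream of the gene. The region at chr12:73894891-73896231 was 1341 bp wide but had a level of only 3.51 log2 CPM, so that 8.27% of regions of similar width (within 20%) were lower. It held 1 HRE core and 1 AP-1 site. A narrow region of 318 bp followed it after 184 bp, at chr12:73896416-73896733, with 0.79 log2 CPM and 1 HRE core. The most distant, chr12:73882652-73883130, reached 1.62 log2 CPM and held neither motif. None of the introns of Hif1a contained a whole region, not even intron 1 with its 18.2 kb. An antisense transcript, Gm15283, spans the gene, and reads of ATAC-seq carry no strand that would separate them.

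Epas1 combined an open start with a series of intronic regions, which together carried more than the start did. The region at the start, chr17:86753047-86754475, was 1429 bp wide and reached 5.78 log2 CPM, the second highest level among the members. It held 3 HRE cores, 4 GC boxes and 2 CCAAT boxes, and 47.9% of the summed level of the gene (54.9 of 114.6 CPM). The other 52.1% lay in 1 upstream and 7 intronic regions.

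Intron 1 of Epas1, 42.8 kb long, contained 5 of these regions with 44.5 CPM in sum. The highest was chr17:86784435-86785807, with its midpoint 31.42 kb after the start, at 4.28 log2 CPM, the highest level of a member away from any start. It was 1373 bp wide, and 27.1% of regions of similar width were lower, so its level was modest for its width. The next, chr17:86769632-86770400 at 16.32 kb, reached 3.68 log2 CPM and held 1 HRE core and 1 AP-1 site, the only AP-1 site at Epas1. The other 3 were narrower. They reached 2.23 log2 CPM at 9.35 kb, 2.12 log2 CPM at 12.48 kb and 1.69 log2 CPM at 36.61 kb, and the last of them held an HRE core. The region at 12.48 kb held 3 RUNX cores (TGTGGT), the most of any member region.

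Intron 6 of Epas1 contained the other 2 intronic regions, which lay 1884 bp apart. The region chr17:86811883-86812429 reached 2.80 log2 CPM and held 2 HRE cores, 1 of them in a CACGTG palindrome. Its neighbour chr17:86814314-86814698 reached 2.67 log2 CPM over 385 bp, higher than 92.6% of regions of similar width, and held neither motif. The single upstream region, 8596 bp before the start, had 0.84 log2 CPM, the lowest level at Epas1.

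Hif3a was the only gene of the 5 without a region at the start of its reference transcript, the coding transcript with the longest coding sequence. All 4 regions in its window were narrow, from 238 to 434 bp, and low, from 0.47 to 1.70 log2 CPM. The start at chr7:17062427 had a GC content of 57.0% and an observed-to-expected CpG ratio of 0.40, below the 0.6 used here for a CpG-rich start, and the nearest region began 2034 bp inside the gene. That region, chr7:17060047-17060393 in intron 1, was the highest at the gene with 1.70 log2 CPM and held its only HRE core. The region chr7:17058221-17058654, also in intron 1, reached 1.49 log2 CPM and covered the start of 4833404L02Rik, a transcript of unsettled type on the other strand. The region chr7:17056177-17056418 had 0.47 log2 CPM, the lowest level of all 33. It overlapped exon 2 and lay 261 bp from the start of another Hif3a transcript at chr7:17056679. The fourth, chr7:17073863-17074100, had 1.25 log2 CPM and covered the start of Psg16, a pregnancy-specific glycoprotein gene on the other strand. Under the rule it was counted with Hif3a, although the start it covers belongs to the neighbour.

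Arnt had a single region, which lay on its start. It was chr3:95433433-95435120, 1688 bp wide, the widest of all members, with a level of 5.49 log2 CPM, higher than 53.4% of regions of similar width. It covered all 5 distinct positions at which the 7 transcripts of the first cluster start, and it held 3 HRE cores, the CRE, 1 CCAAT box and 2 RUNX cores but no GC box. The other 4 annotated starts, 31900 to 55017 bp into the gene, had no region within 1000 bp. Apart from the part of intron 1 that this region reached, the list held no region in the 21 introns of Arnt, of which the longest was 13.8 kb. The next region downstream began 63.5 kb after the Arnt region, at the start of Ctsk, the gene of the bone-resorbing protease cathepsin K, with 3.36 log2 CPM. The next upstream lay 24.8 kb away with 3.30 log2 CPM.

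Arnt2 showed the opposite layout, with 15 regions and a weak start. The region at the start, chr7:84409542-84410104, reached 2.14 log2 CPM and ranked 11th among the 15. It was 563 bp wide, with a GC content of 73.9% and an observed-to-expected CpG ratio of 0.94, and it held 2 HRE cores and 4 GC boxes. It lay within exon 1 and intron 1 and ended 15 bp short of the reference start at chr7:84410119, while 2 other annotated transcripts of Arnt2 start inside it. Only 4.49% of the summed level of the gene (4.40 of 97.9 CPM) came from this region.

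The highest regions of Arnt2 lay deep in the gene. The region in intron 11, chr7:84279191-84279868, reached 4.03 log2 CPM with its midpoint 130.59 kb after the reference start, and it was higher than 91.0% of regions of similar width. It held 1 AP-1 site and 1 HRE core. The region in intron 12, chr7:84272054-84272791, reached 3.88 log2 CPM and was higher than 82.9% of regions of similar width, with neither motif. Of the 97.9 CPM at the gene, they held 16.7% and 15.1%. The third was chr7:84355616-84356521 in intron 2, with 3.01 log2 CPM over 906 bp.

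Intron 5 of Arnt2, 32.8 kb long, contained 5 regions between 0.66 and 2.84 log2 CPM. The highest of them, chr7:84332457-84333267, held 2 HRE cores, 1 of them in the CACGTG palindrome printed above, and 3 CCAAT boxes. The region chr7:84337560-84338233 reached 2.47 log2 CPM, covered the start of the antisense transcript Gm30873 and held an AP-1 site. The narrow region chr7:84335753-84335979, with 0.87 log2 CPM, held the third AP-1 site of the gene. The region chr7:84329199-84329622 reached 1.78 log2 CPM and held neither motif. The lowest at the gene, chr7:84310998-84311231 with 0.66 log2 CPM, lay on the start of a noncoding Arnt2 transcript. The other 6 regions lay in introns 1, 3, 8, 17 and 18, with 2 in intron 8, at 2.05 to 2.77 log2 CPM, and 1 of them, in intron 17, held an HRE core. The 48.2 kb of intron 1 contained a single whole region, at 2.45 log2 CPM, with no CpG in its 432 bp.

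**Figure D1:**
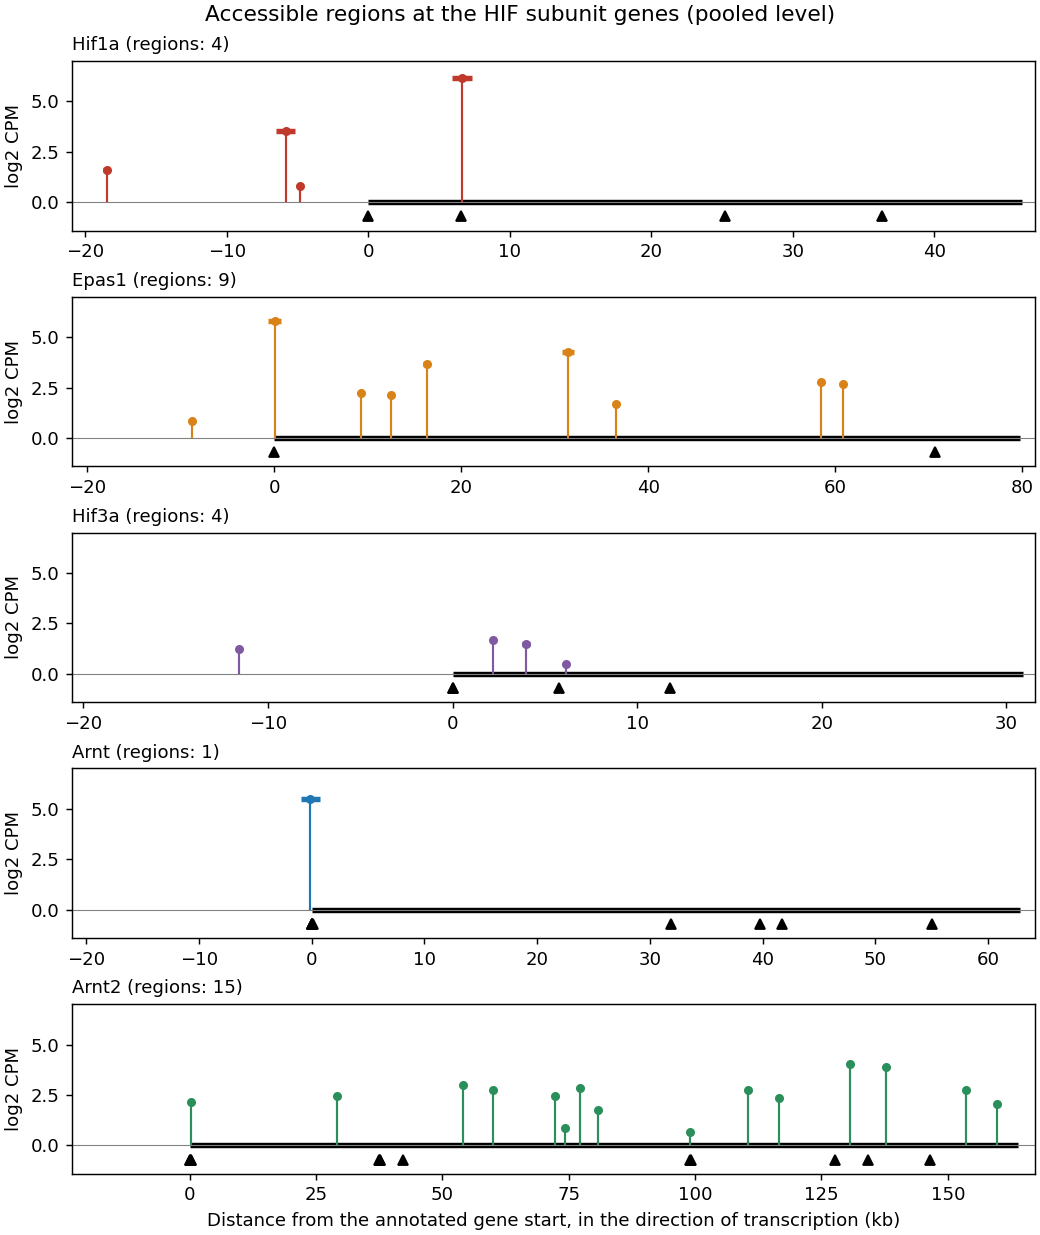
Position and pooled level of the 33 regions at each gene. The horizontal axis is the distance from the annotated gene start in kb, the vertical axis the level in log2 CPM, each stem a region at its midpoint with a bar as wide as the region, the black line the gene and the triangles annotated transcript starts. Hif1a, Epas1 and Arnt have 1 tall stem at a start (6.17, 5.78 and 5.49 log2 CPM), Hif3a has low stems only, and the tallest stem of Arnt2 (4.03 log2 CPM) stands far inside the gene.

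The map of the 5 genes shows how unequal the layouts were. Arnt had all of its level and Hif1a 81.7% of it in 1 region, Epas1 divided it between start and introns, and Arnt2 had almost all of it in introns. In sum over the window, Epas1 had 114.6 CPM, Arnt2 97.9 CPM, Hif1a 88.4 CPM, Arnt 44.9 CPM and Hif3a 9.83 CPM. Windows differ in length, and regions covered 5.92% of the bases of the window at Epas1, 5.38% at Hif1a, 4.88% at Arnt2, 2.48% at Hif3a and 2.04% at Arnt. Without values per sample it cannot be said which neighbours in these orders differ.

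**Figure D2:**
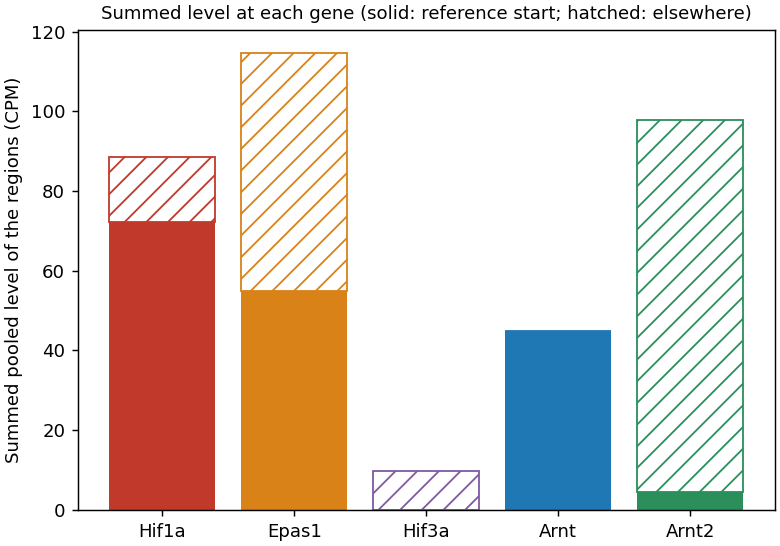
Summed pooled level of the regions of each gene in CPM. The solid part of a bar is the region at the reference start and the hatched part all other regions in the window. The solid part is 81.7% of the bar at Hif1a, 47.9% at Epas1, all of it at Arnt, 4.49% at Arnt2 and absent at Hif3a.

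At the reference starts, the order was Hif1a (6.17 log2 CPM), Epas1 (5.78), Arnt (5.49) and Arnt2 (2.14), with no region at Hif3a. Of 21938 coding genes, 59.4% had a region within 1000 bp of the reference start, with a median level of 5.04 log2 CPM. Among those genes, 87.0% had a lower level than Hif1a, 76.0% than Epas1, 66.1% than Arnt and 10.2% than Arnt2. The 4 starts with a region were all CpG-rich (GC content of at least 55% and a CpG ratio of at least 0.6 over 500 bp on each side). Of 8720 genes with CpG-rich starts, 90.2% had a region there, with a median of 5.39 log2 CPM. Within that class the shares with a lower level were 81.2% for Hif1a, 66.5% for Epas1, 53.9% for Arnt and 4.59% for Arnt2. Arnt was thus near the middle of its class and Arnt2 close to the bottom. The start of Hif3a belonged to the other class, in which 39.0% of 13218 genes had a region. Over all 5 genes, 17 of 35 annotated transcripts had a region within 1000 bp of their start. Of these, 7 were Arnt transcripts near the same 1 region, and no such share was computed over all annotated transcripts.

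**Figure D3:**
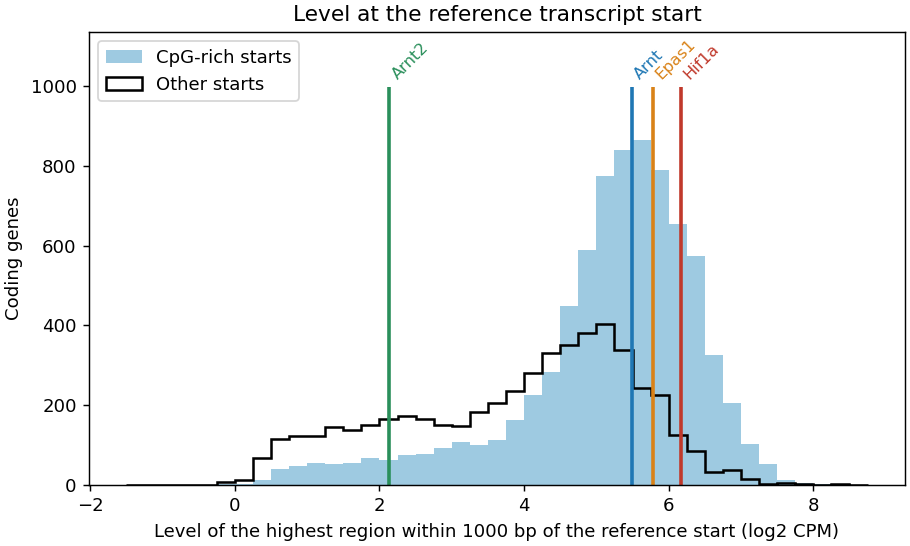
Levels at reference transcript starts of coding genes. The horizontal axis is the level of the highest region within 1000 bp in log2 CPM and the vertical axis the number of genes, with CpG-rich starts filled and other starts as an outline. The lines of Arnt (5.49), Epas1 (5.78) and Hif1a (6.17) fall in the main hump of CpG-rich starts, and that of Arnt2 (2.14) falls in its thin lower tail.

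Longer genes hold more regions, so each gene was set beside the coding genes within 20% of its length. Arnt, 62.9 kb long, had fewer regions than most: 7.58% of 1609 such genes had fewer than its 1 region (95% Wilson interval 6.39% to 8.98%, for counting error only), 9.45% had the same number and 83.0% had more, with a median of 4. The share with fewer was 18.9% for 50 kb upstream, where Arnt had 3 regions, and 16.0% for regions of at least 500 bp. Like Arnt, 16.7% of these genes had no region away from starts. Epas1, 79.7 kb long, had more regions than 74.0% of 1376 genes (71.6% to 76.2%), with a median of 5. Arnt2, 163.9 kb long, had more than 74.6% of 735 genes (71.3% to 77.6%), with a median of 8. Epas1 and Arnt2 were therefore in the upper part of their classes, but 20.4% and 22.0% of genes had more than they did.

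Hif1a, 46.2 kb long, had more regions than 46.7% of 1914 genes (44.4% to 48.9%), with a median of 4. That share depended on the window, with 12.0% for the gene body alone and 72.0% for 50 kb upstream. Its summed level was higher than that of 74.7% of these genes, and its highest region higher than that of 87.8%. Hif3a, 30.9 kb long, had more regions than 54.0% of 2412 genes (52.0% to 56.0%), with a median of 3, but its summed level was higher than in only 20.6% of them and its highest region in 17.2%. The share by number for Hif3a also depended on the setting, with 33.2% for 50 kb upstream and 0% for regions of at least 500 bp, of which it had none. For Epas1 the summed level was higher than in 79.1% of genes of similar length, for Arnt2 in 61.8% and for Arnt in 41.2%. The highest region of Arnt2 was higher than in 36.7% of its class, that of Arnt in 64.2% and that of Epas1 in 73.1%.

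**Figure D4:**
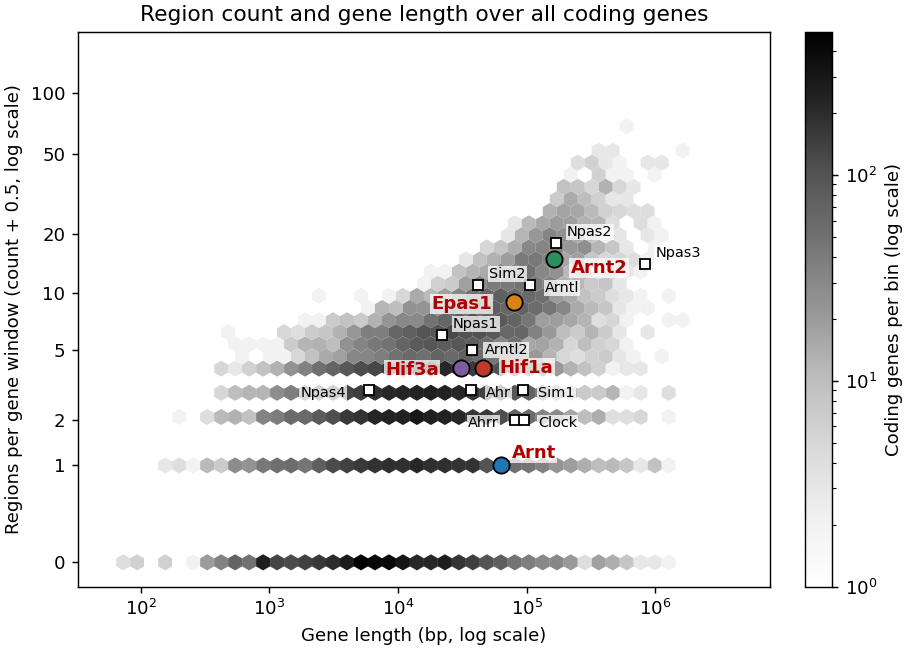
Number of regions and gene length over all coding genes. The horizontal axis is the length in bp and the vertical axis the number of regions from 20 kb upstream to the gene end, both on log scales with 0.5 added to the number, grey shade gives genes per bin, coloured circles are the HIF subunit genes and white squares the other bHLH-PAS genes. Arnt with 1 region lies below the bulk of genes of its length, and Epas1 with 9 and Arnt2 with 15 lie in its upper part.

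The other bHLH-PAS genes are the relatives of the HIF subunits, with the dioxin receptor Ahr and its repressor Ahrr, the clock genes Clock, Npas2, Arntl and Arntl2, and the neural genes Npas1, Npas3, Npas4, Sim1 and Sim2. Each of these 11 genes had at least 1 region, and they held 78 in all, from 2 at Ahrr and Clock to 18 at Npas2. Each also had a region within 1000 bp of 1 of its own transcript starts. By the highest level at any of its own starts, a gene had from 0.90 log2 CPM (Npas1) to 6.17 log2 CPM (Arntl, which had no region at its reference start), with a median of 3.23. The highest relatives after Arntl were Clock (5.82 log2 CPM) and Arntl2 (5.65 log2 CPM), beside 6.17 at Hif1a, 5.78 at Epas1 and 5.49 at Arnt. Arnt2 (2.14 log2 CPM) stood just below Ahrr (2.29) and Npas4 (2.38), and the region 261 bp from an inner start of Hif3a (0.47) was lower than any relative. Clock, encoding a core clock activator and 94.9 kb long, was the relative most like Arnt in layout. Its window held 2 regions that both lay at starts, and 12.1% of genes of similar length had fewer. Sim2, 42.1 kb long, had 11 regions in its window, more than 96.0% of genes of its length, at levels that ended at 3.57 log2 CPM.

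By position, 9 of the 33 regions (27.3%, Wilson interval 15.1% to 44.2%) lay within 1000 bp of an annotated transcript start of any gene, against 22.7% of all regions. Of the 9, 6 were at a start of the member gene itself and 3 at starts of Psg16, 4833404L02Rik and Gm30873. Another 20 lay in introns, 7 at Epas1, 1 at Hif3a and 12 at Arnt2, and 4 lay upstream of the genes, 3 at Hif1a and 1 at Epas1. No region away from starts overlapped an exon. The shares of introns, exons and upstream sequence over the whole list were not computed, so these counts only describe the 33 regions.

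An HRE core was found in 14 of the 33 regions (42.4%, Wilson interval 27.2% to 59.2%), against 46.2% of all regions and a mean of 48.8% in regions of similar width. The share of the list at large thus lay inside the interval of the genes that encode the factor. The interval treats the 33 regions as independent, although 15 of them lie at Arnt2, so it cannot decide whether the shares differ. The 25 cores were spread unevenly. The 4 regions at CpG-rich reference starts held 13 of them, 5 at Hif1a, 3 at Epas1, 3 at Arnt and 2 at Arnt2, and the other 5 regions near starts held none. A core was thus present in 4 of 9 member regions near starts, against 72.3% of all such regions in the list. These 9 were narrower, with a median of 563 bp against 867 bp, and a share matched for width was not computed for starts. Of the 24 regions away from starts, 10 held a core, and 38.6% of all such regions in the list did. By gene, a core was present in 3 of 4 regions at Hif1a, 5 of 9 at Epas1, 1 of 4 at Hif3a, the 1 at Arnt and 4 of 15 at Arnt2.

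An AP-1 site was found in 5 of the 33 regions (15.2%, interval 6.65% to 30.9%), against 22.1% of all regions. Of these, 3 were at Arnt2, 1 at Epas1 and 1 at Hif1a. With TGANTCA the shares were 33.3% and 28.1%, so the direction against the list turned. It did not turn in the central 200 bp (6.06% against 12.1%) or in regions of at least 500 bp (22.2% against 28.1%). Of the other motifs searched on both strands, the CCAAT box was in 15 regions (45.5%, against 47.4% of all), the RUNX core in 11 (33.3%, against 42.7%), the TEAD core (GGAATG) in 10 (30.3%, against 31.5%), the GC box in 6 (18.2%, against 21.8%), the E-box CACGTG in 3 (9.09%, against 9.16%) and the CRE in 1 (3.03%, against 1.10%). The share of the whole list lay inside the Wilson interval of the members for each of these motifs, with the same limit that regions are treated as independent. A GC box was in 4 of 9 member regions near starts and 2 of 24 away from them, against 58.7% and 11.0% in the list. The difference in width near starts applies here as well.

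The median level of the 33 regions was 2.45 log2 CPM (interval of the median 1.78 to 2.80 from the order of the values), with a range of 0.47 to 6.17, and that of all regions was 2.12. Of the 33, 20 were above the median of the list. The members were also wider, with a median of 547 bp against 460 bp. Level rose with width in the members (Pearson r = 0.90 on log2 width, n = 33) and in the whole list (r = 0.90), as a description over regions of the same libraries. The level was read as counting all cuts in a region and is not divided by its width. By the share of regions of similar width that were lower, the members ran from 8.27% at the 1341 bp region upstream of Hif1a to 92.6% at the intronic region of Epas1 at 60.81 kb.

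**Figure D5:**
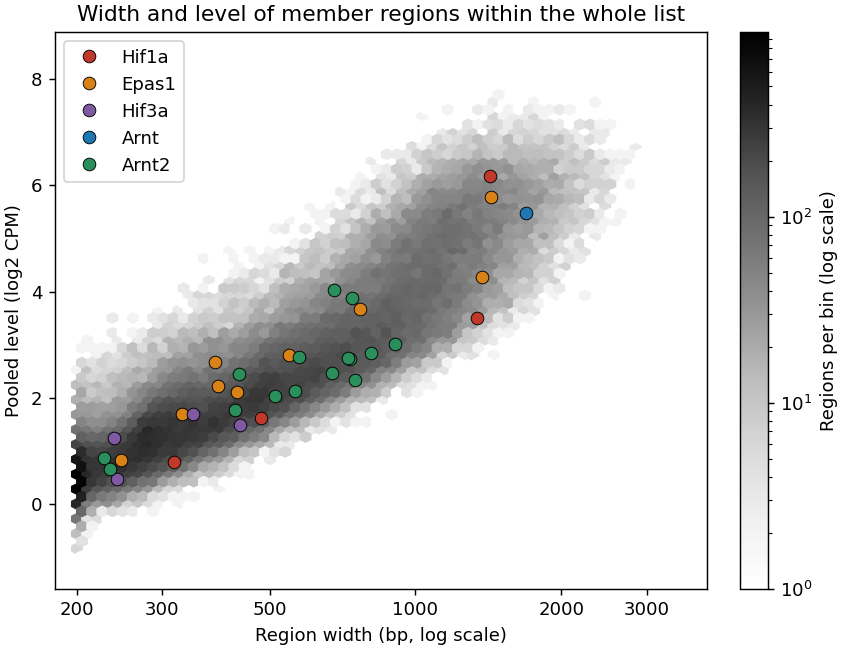
Width and pooled level of the member regions within the whole list. The horizontal axis is the region width in bp on a log scale, the vertical axis the level in log2 CPM, grey shade the number of regions per bin and coloured circles the 33 members. The circles follow the grey band, with the 1341 bp region upstream of Hif1a (3.51 log2 CPM) at its lower edge and the 678 bp region in intron 11 of Arnt2 (4.03 log2 CPM) near its upper edge.

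The labelled cell types were checked by marker genes. A region lay within 1000 bp of a start for 5 of 6 mesenchymal progenitor genes (all but Thy1) and for 4 of 8 osteoblast and osteocyte genes (Runx2, Sp7, Dmp1 and Fgf23, not Mepe, Phex, Sost or Pdpn). Among genes of other cells, the endothelial gene Pecam1 had a low region (1.89 log2 CPM), and Ptprc, Cdh5, Alb and Myod1 had none. Over all coding genes 59.4% had a region at the reference start, so these counts are no firm check of the labels. The late osteocyte gene Sost had none, and a pooled list does not show in which samples a region was open.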

How the data were processed

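Per the study's methods, with versions from the submitters' processing notes, reads were trimmed with Trim Galore and aligned to mm10 with Bowtie2, duplicates were removed with Picard 2.17.8, and peaks were called with MACS2 2.2.7.1. The authors then merged peaks across samples, took out ENCODE blacklist regions, used pyDNase to obtain the cuts in each region, filtered out those with low numbers and applied TMM normalisation in edgeR 3.24.3. A sample that they removed for quality is not analysed here, and a shift for the Tn5 offset is not given in the sources used here. Merging joins peaks of several samples, which bears on width and therefore on motif counts. The deposited value per region was read as log2 CPM from the values alone, with 460 regions below 0. It is the authors' pooled value.

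Regions were joined to GENCODE M21 genes and GRCm38 sequence with Python 3.11.15, numpy 2.4.6, scipy 1.17.1 and matplotlib 3.10.9. The joins were tested on simulated data. Genes were compared with coding genes within 20% of their length, and regions with regions within 20% of their width. Intervals are 95% Wilson intervals and cover counting error only. No test was run, since no value per sample was at hand. Named were the 5 genes with all their regions, 11 other bHLH-PAS genes by number and start level, markers, and genes whose start or body lies in a window, with Ctsk and its level named after its values were seen. The members and lists were chosen with earlier results of these data known. The result for 1 marker gene is not reported here.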

Additional observations from a re-analysis of the deposited data

How the results depend on the processing

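No paired analysis was possible because only 1 pooled value was given for each region. Of 92 values under other settings, 53 stayed and 39 moved, where a number of regions moved if it changed by more than 1.5 times and a share or median moved if it left the interval of the reported value. Counting 50 kb upstream gave 9 regions at Hif1a, 14 at Epas1 and 3 at Arnt, and the share of genes of similar length with fewer regions became 72.0% for Hif1a, 85.2% for Epas1, 33.2% for Hif3a and 18.9% for Arnt. Counting 10 kb upstream gave shares of 40.3% for Hif1a, 79.0% for Epas1 and 49.9% for Hif3a. The gene body alone left 1 region at Hif1a, with shares of 12.0% for Hif1a, 77.8% for Epas1, 61.5% for Hif3a, 9.45% for Arnt and 78.9% for Arnt2. Regions of at least 500 bp numbered 18 in all, with 2 at Hif1a, 4 at Epas1 and 0 at Hif3a. Their shares were 44.3% for Hif1a, 68.5% for Epas1, 0% for Hif3a, 16.0% for Arnt and 91.3% for Arnt2, their median level was 2.93 log2 CPM, and 61.1% of them held an HRE core, against 66.3% of such regions in the list. Genes within 50% in length gave 49.8% for Hif1a, 78.5% for Epas1, 56.6% for Hif3a and 80.5% for Arnt2. Genes of the same chromosome gave 53.4% for Hif1a (58 genes), 67.3% for Epas1 (55 genes) and 61.5% for Hif3a (179 genes). HRE cores were in 24.2% of regions with ACGTG alone (27.1% of all regions), in 21.2% with ACGTGC or GCGTGC (18.6%) and in 24.2% when the central 200 bp were searched (24.2%). AP-1 sites were in 33.3% with TGANTCA (28.1%) and in 6.06% in the central 200 bp (12.1%). Wider windows or sequences contain more by construction, and the cause of the other shifts was not tested. At Arnt the share ran from 7.26% to 18.9% over all settings, and at Hif1a from 12.0% to 72.0%. Depth per sample is unknown, so a gene or start without a region may hold accessible chromatin under the limit of the list.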
